A study of Homo sapiens with 14 samples.

Results

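The genes described here code for the machinery of RNA polymerase III (Pol III) itself. They are 34 protein-coding genes taken by name, namely 17 genes for Pol III subunits, GTF3A for TFIIIA, 4 genes for TFIIIB, 6 for TFIIIC, 5 for the snRNA-activating complex SNAPc, and the repressor gene MAF1. They are 34 of the 19821 protein-coding genes on chromosomes 1 to 22 and X of the RefSeq GRCh38.p14 table. Each gene was read as its annotated span with 5 kb on each side, and a peak region was assigned to a gene when it overlapped that window by at least 1 bp. The data are chromatin immunoprecipitation sequencing (ChIP-seq) of T47D, an established line of breast cancer cells with receptors for oestrogen and progesterone, treated for 1 h with ethanol (the vehicle) or with progesterone (P4). No genetic change is named in the labels, and no dose of P4 is given there. One antibody bound the progesterone receptor (PR) and the other POLR3A, the subunit that holds the active site of Pol III. Each antibody was used on 3 libraries per treatment, and each treatment has 1 pooled input library, 14 in all. What was deposited are 4 peak lists, 1 per group, and how the 3 replicates entered a list is not stated in the labels. A difference between lists therefore has no replicate error, and no test between treatments was possible. Most counts over the whole set stand beside the same count over all protein-coding genes.

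Pol III makes transfer RNAs, 5S ribosomal RNA, U6 small nuclear RNA and other short RNAs. At a tRNA gene, TFIIIC binds the A and B boxes inside the transcribed part and places TFIIIB upstream, and TFIIIB then recruits the polymerase. TFIIIA does the first step at 5S genes, SNAPc binds the upstream element of U6-type genes, and MAF1 shuts the polymerase off when nutrients or growth signals fail. The genes for these proteins are read by RNA polymerase II, like other protein-coding genes. PR is a nuclear receptor that binds DNA as a transcription factor once it has its ligand.

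The 4 lists held 38933 PR regions under vehicle, 111515 PR regions under P4, 29161 POLR3A regions under vehicle and 47904 POLR3A regions under P4. Each region carries the authors' own fold enrichment and −log10 q, the significance from the peak caller, and these scores were used to rank regions within a list and not to compare lists. Percentiles below are those of −log10 q within the region's own list, where 100 is the strongest. A bare value in parentheses after a region, or a value called a score, is its −log10 q. Read counts are not in the lists and the depth is unknown. The longer P4 lists give every gene more chances to hold a region. Of 8 genes that mark luminal breast cells, 7 had a PR region in their windows under vehicle and 8 under P4, against 50.7% and 76.2% of all protein-coding genes, and the counts for POLR3A were also 7 and 8, against 48.9% and 54.4%. These are sites and not expression.

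Promoter sequences of 6 of the genes show where the regions fell and which letters they held. They are the 250 bases before the start, 5′ to 3′ on the gene's strand, from RefSeq GRCh38.p14, and were chosen after the values were seen. In POLR3E (chr16:22297159-22297408, + strand) the capitals mark a match to the B box of tRNA genes (GGTTCGA, any base, then TCC), and the first 63 bases belong to a tRNA gene. In SNAPC5 (chr15:66497763-66498012, − strand) and BRF1 (chr14:105315590-105315839, − strand) the capitals mark matches to ACANNNTGT, the core of the steroid receptor element, and to one arm of it, AGAACA. In POLR3B (chr12:106357498-106357747, + strand) they mark the 68 bases inside both the PR and the POLR3A region under vehicle, in GTF3C3 (chr2:196799684-196799933, − strand) the 133 bases inside both regions under P4, and in TBP (chr6:170554119-170554368, + strand) the 129 bases inside the POLR3A region under vehicle.
POLR3E: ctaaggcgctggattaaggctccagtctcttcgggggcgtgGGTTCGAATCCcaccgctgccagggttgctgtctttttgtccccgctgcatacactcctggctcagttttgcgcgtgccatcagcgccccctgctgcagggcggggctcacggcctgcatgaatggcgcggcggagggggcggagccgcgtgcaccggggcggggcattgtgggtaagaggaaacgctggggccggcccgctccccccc
POLR3B: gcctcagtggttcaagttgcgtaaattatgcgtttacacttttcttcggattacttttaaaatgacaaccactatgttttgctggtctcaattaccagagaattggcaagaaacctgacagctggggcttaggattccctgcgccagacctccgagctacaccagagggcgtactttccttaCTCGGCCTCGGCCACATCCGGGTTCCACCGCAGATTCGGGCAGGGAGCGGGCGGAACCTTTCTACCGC
GTF3C3: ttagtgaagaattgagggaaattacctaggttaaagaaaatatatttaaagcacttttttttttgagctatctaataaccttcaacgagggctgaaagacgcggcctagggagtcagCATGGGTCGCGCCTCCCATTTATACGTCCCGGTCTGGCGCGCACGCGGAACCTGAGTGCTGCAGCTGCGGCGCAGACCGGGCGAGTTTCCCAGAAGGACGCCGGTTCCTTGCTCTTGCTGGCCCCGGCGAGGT
TBP: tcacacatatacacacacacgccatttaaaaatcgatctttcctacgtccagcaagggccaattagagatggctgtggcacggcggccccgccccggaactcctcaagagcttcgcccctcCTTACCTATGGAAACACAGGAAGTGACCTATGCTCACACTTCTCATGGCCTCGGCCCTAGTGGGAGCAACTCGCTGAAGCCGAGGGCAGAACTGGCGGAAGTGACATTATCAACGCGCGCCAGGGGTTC
SNAPC5: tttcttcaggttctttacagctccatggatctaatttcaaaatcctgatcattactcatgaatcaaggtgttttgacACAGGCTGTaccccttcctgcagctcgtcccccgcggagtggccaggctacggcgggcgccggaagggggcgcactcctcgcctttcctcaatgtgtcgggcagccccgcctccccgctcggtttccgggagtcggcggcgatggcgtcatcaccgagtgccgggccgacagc
BRF1: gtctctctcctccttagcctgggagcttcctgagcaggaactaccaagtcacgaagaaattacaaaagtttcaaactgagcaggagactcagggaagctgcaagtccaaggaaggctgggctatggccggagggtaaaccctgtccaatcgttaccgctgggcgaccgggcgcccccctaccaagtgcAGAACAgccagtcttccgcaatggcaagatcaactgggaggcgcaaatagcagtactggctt

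Most of these genes had both PR and POLR3A regions in their windows. PR regions lay in the windows of 23 of 34 genes under vehicle, 67.6%, against 50.7% of all protein-coding genes, and of 32 of 34 under P4, 94.1%, against 76.2%. POLR3A regions lay in the windows of 25 of 34 genes under each treatment, 73.5%, against 48.9% under vehicle and 54.4% under P4. Long genes hold more regions, so the counts were also made by span. Among the 15 genes under 20 kb, 10 had a PR region under vehicle and 13 under P4, against 39.9% and 65.8% of all genes of that span, and 10 had a POLR3A region in each list, against 43.2% and 48.2%. Among the 16 genes of 20 to 100 kb the counts were 10, 16, 12 and 13, against 55.7%, 83.1%, 52.8% and 59.3%. The 3 genes of 100 kb or more, BDP1, POLR3B and BRF1, gave 3, 3, 3 and 2, against 68.1%, 87.9%, 54.7% and 59.4%. The median span of the 34 genes was 24761 bp and that of all protein-coding genes 24482 bp.

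In the median strength of their regions, these genes stood above other genes for POLR3A and not for PR. The strongest POLR3A region of a gene had a median percentile of 75.8 under vehicle and 82.2 under P4, against 61.8 and 70.9 over all protein-coding genes with a region. The strongest PR region had a median percentile of 47.1 under vehicle and 77.9 under P4, against 61.6 and 79.6. With regions of −log10 q of at least 5, PR under vehicle was at 12 of 34 genes, against 33.9% of all genes, and with at least 10 at 6 of 34, against 22.3%, so the PR vehicle share was then near or below that of other genes. POLR3A at a −log10 q of at least 5 was at 14 of 34 genes under vehicle and 13 under P4, against 18.2% and 18.8%, and at a −log10 q of at least 10 it was at 3 and 3, against 3.99% and 3.52%. PR under P4 was at 28 genes with a threshold of 5, against 62.1%, and at 18 with a threshold of 10, against 45.6%.

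**Figure D1:**
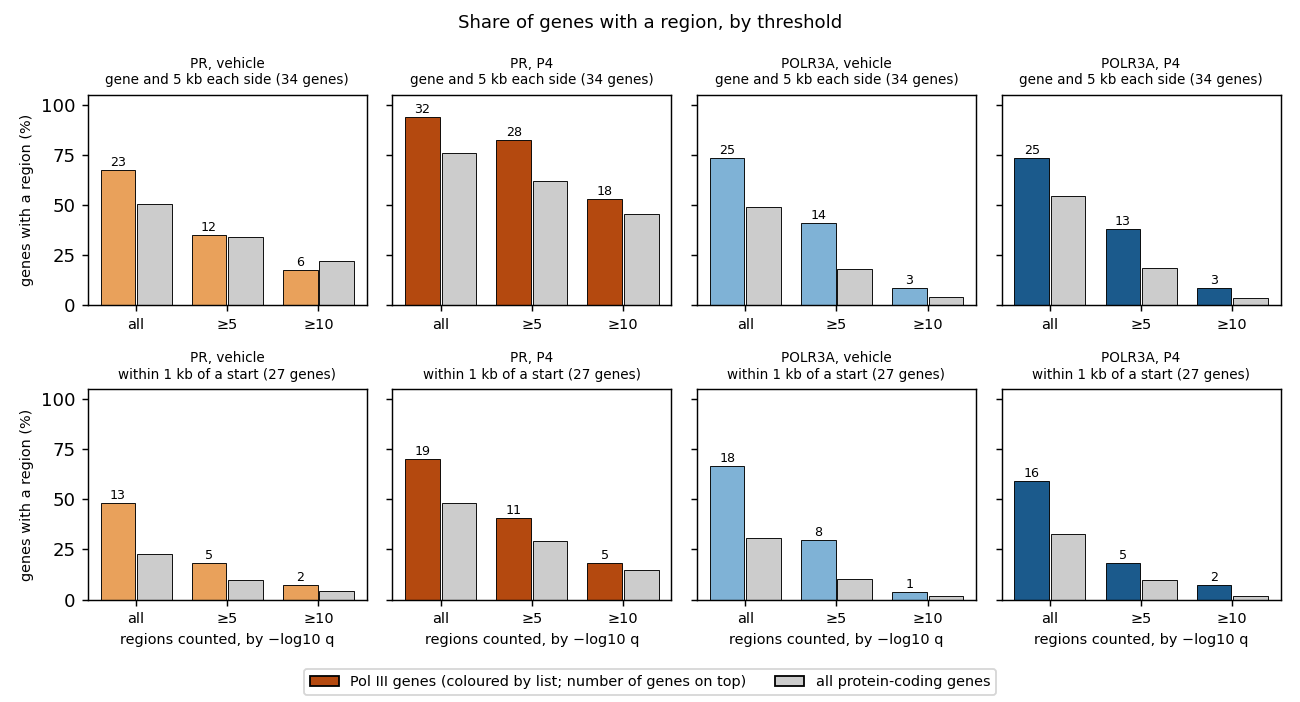
Share of genes with at least 1 region (percent, y axis) when all regions are counted and when only regions of −log10 q of at least 5 or 10 are counted (x axis), for the Pol III genes (coloured bars, number of genes on top) and for all protein-coding genes (grey bars). The upper row counts regions in the gene and 5 kb on each side of it (34 genes) and the lower row regions within 1 kb of a start (27 genes); the PR vehicle bars of the upper row meet the grey bars at a threshold of 5 and fall below them at 10.

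Regions near the starts were counted for the 27 genes that have a start in the RefSeq promoter table. The other 7, POLR2K, POLR3D, POLR3G, CRCP, BRF2, SNAPC4 and MAF1, have no entry there. A POLR3A region reached within 1 kb of a start in 18 of 27 genes under vehicle, against 30.6% of protein-coding genes with a start, and in 16 of 27 under P4, against 32.8%. For PR the counts were 13 of 27 under vehicle, against 22.7%, and 19 of 27 under P4, against 48.4%. Both factors were near a start in 10 genes under vehicle, against 15.2%, and in 14 under P4, against 28.4%. With a −log10 q of at least 5, the counts near a start were 5 and 11 for PR, against 9.82% and 29.2%, and 8 and 5 for POLR3A, against 10.4% and 9.66%. With at least 10 they were 2 and 5 for PR, against 4.51% and 14.8%, and 1 and 2 for POLR3A, against 1.95% and 1.78%. Within 1 kb of either gene end, a count that takes in all 34 genes, PR was at 17 and 26 genes, against 23.9% and 50.2%, and POLR3A at 23 and 21, against 30.8% and 33.6%.

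The 8 genes with regions of all 4 lists near a start were POLR3A, POLR3B, POLR2H, POLR3C, POLR3E, BRF1, GTF3C2 and SNAPC5, and the 4 with none there were POLR1D, POLR2L, GTF3C6 and SNAPC2. Summit distances were taken only for regions that reached within 1 kb of a start, so short distances follow from that selection. The median distance of the nearest POLR3A summit was 189 bp in 18 genes under vehicle and 179.5 bp in 16 under P4. Over all protein-coding genes with such a region it was 206 and 294.5 bp. For PR it was 511 bp in 13 genes under vehicle and 182 bp in 19 genes under P4, against 428 and 335 bp.

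**Figure D2:**
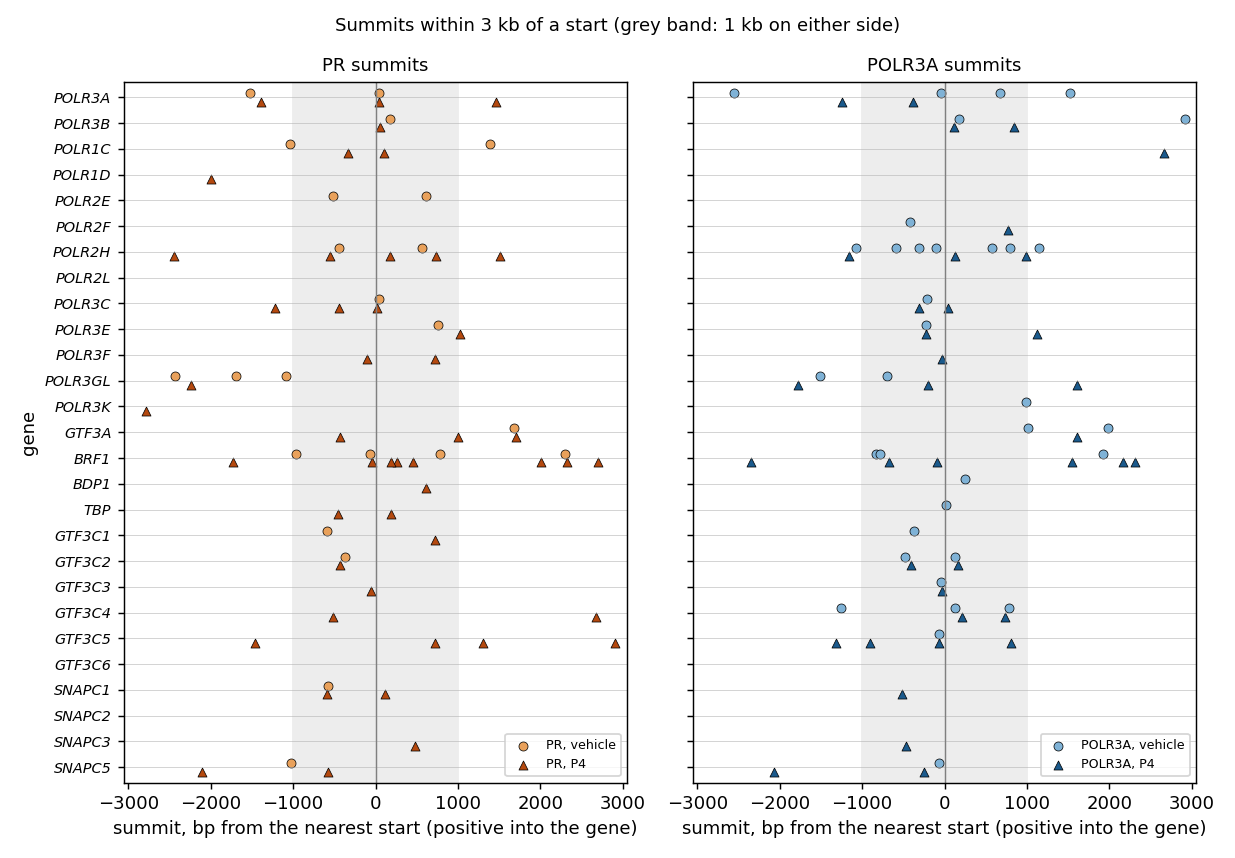
Summits of PR regions (left) and POLR3A regions (right) within 3 kb of a start, in bp from the nearest start with positive values inside the gene (x axis), for the 27 genes with a start in the promoter table (y axis). Circles are vehicle, triangles are P4, and the grey band spans 1 kb on either side; POLR3E has POLR3A summits at −221 under vehicle and at −227 and 1118 under P4.

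Motif matches in these promoters are set beside the share over all promoters of the table. The set is small, so each share rests on a handful of promoters. The promoter table holds 38 promoters of the 27 genes, each 300 bases long, and each motif was searched on both strands. None held the palindromic steroid receptor element (GNACA, any 3 bases, then TGTNC), which 0.392% of all 34961 promoters of the table hold. Its core ACANNNTGT, which lies inside that palindrome, was in 1 promoter, that of SNAPC5, against 5.36%, and its single arm AGAACA in 4 promoters of 3 genes, BRF1, POLR3K and SNAPC3, against 14.8%. The SNAPC5 match begins 173 bp before the start and lies inside the PR region under P4 and inside the POLR3A regions of both treatments. The printed BRF1 match begins 62 bp before the start and lies inside the PR regions of both treatments. TATAAA was in 1 promoter, on the opposite strand of GTF3C3, against 11.5%. The median GC content was 64.3% in the promoters of these genes, 62.3% in those of all protein-coding genes and 58.7% in all promoters of the table.

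POLR3E, a peripheral subunit of Pol III (chr16:22297409-22335096, gene 55718), had the strongest POLR3A region of the 34 genes in both lists. Under vehicle it was a single region at chr16:22296896-22298801, 1906 bp wide, with a fold enrichment of 98.9 and a −log10 q of 625. It ranked 2 of 29161 by both scores. The leucine tRNA gene TRL-AAG2-4 (chr16:22297140-22297221) ends 188 bp before the start of POLR3E, and its B box is the stretch in capitals in the printed promoter. The POLR3A summit lay 221 bp before the start and 7.5 bp from the midpoint of that tRNA gene. POLR3E was the 1 gene among the 27 with a tRNA gene within 1 kb of a start, as 34 of 15812 protein-coding genes have (0.215%). The B box letters occur in 29 promoters of the table, or 0.0829%.

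Under P4 the POLR3A list held a pair of regions there in place of the wide one. The first, chr16:22296720-22297811, had its summit 227 bp before the start and 1.5 bp from the tRNA midpoint, with a fold enrichment of 56.3 and a −log10 q of 512. The second, chr16:22298040-22298793, lay inside the gene and did not reach the tRNA gene. Its summit was 1118 bp after the start and 1345 bp from the first summit, with a fold enrichment of 66.8 and a −log10 q of 445, rank 112 of 47904 by −log10 q and 64 by fold. The wide vehicle region covers the whole of the second one. In mouse, a short interspersed repeat inside this gene is known to be read by Pol III; which sequence lies under the second region was not read here, and the exons of the gene were not used.

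PR regions at POLR3E lay over the second site and not over the tRNA gene. The PR region under vehicle was chr16:22298004-22298570, with a fold enrichment of 3.80, a −log10 q of 4.51 and a summit 759 bp after the start. The PR region under P4 was chr16:22297920-22298608, with a fold enrichment of 9.86, a −log10 q of 30.9 and a summit 1023 bp after the start, 95 bp from the second POLR3A summit. A further 2 PR regions under P4 lay deeper in the gene, at 6940 and 14580 bp, with −log10 q of 1.84 and 3.96. Among the 34 protein-coding genes with a tRNA gene near a start, POLR3A was near the start in 33 under vehicle and 34 under P4, and PR in 19 and 27. By its strongest POLR3A region POLR3E ranked 1 of those 34 genes under vehicle and 18 under P4.

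**Figure D3:**
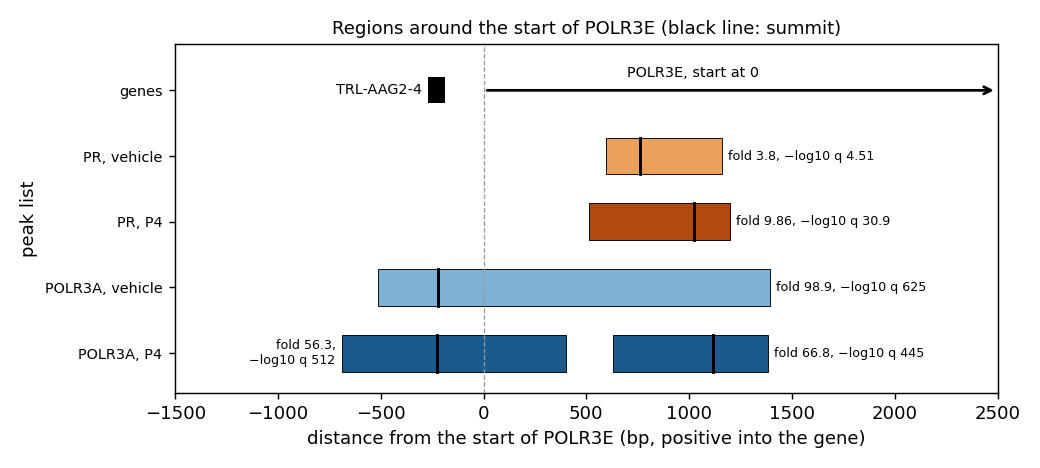
Regions of the 4 peak lists around the start of POLR3E, in bp from the start with positive values inside the gene (x axis), with the tRNA gene TRL-AAG2-4 and POLR3E on top. Boxes span the regions and black lines mark summits; the POLR3A summits at −221 and −227 sit on the tRNA gene, and the PR regions sit with the second POLR3A region of the P4 list.

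The genes for the catalytic core, POLR3A and POLR3B, had regions of all 4 lists near their starts. At POLR3B (chr12:106357748-106510198), the second largest subunit, the 4 regions nearest the start lay over each other, at chr12:106357680-106358635 for PR under vehicle, 106357603-106358721 for PR under P4, 106357646-106358579 for POLR3A under vehicle and 106357606-106358573 for POLR3A under P4. Their −log10 q values were 5.85, 17.8, 6.88 and 8.67, and the summits lay 51 to 180 bp after the start. No other annotated gene overlapped these regions. At POLR3A itself (chr10:77975149-78029515), which codes for the protein the antibody was raised against, the start held weaker regions, with −log10 q of 3.09 and 4.07 for PR and at most 4.36 and 2.91 for POLR3A. Its strongest POLR3A regions lay 4483 bp (vehicle) and 4408 bp (P4) before the start, with −log10 q of 10.2 and 6.73, at the neighbouring ribosomal protein gene RPS24.

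The subunits shared with other polymerases were mixed. POLR1C and POLR1D form a pair in Pol I and Pol III; POLR1C had regions of all 4 lists in its window, with top −log10 q of 5.47, 6.81, 1.31 and 5.34 in the order PR vehicle, PR P4, POLR3A vehicle and POLR3A P4, which is the order used from here on. POLR1D had a PR region under P4 alone, with a −log10 q of 7.39, 1990 bp before a start. That region also touched another annotated gene or the 1 kb around a start of another protein-coding gene. Of the 5 subunits found in all 3 polymerases, POLR2H, POLR2F and POLR2K had regions of all 4 lists, and POLR2E and POLR2L had PR regions in both lists and no POLR3A region. POLR2H (chr3:184361710-184368591) held 5, 8, 9 and 8 regions, the most of the 5, with top −log10 q of 7.57, 33.8, 5.87 and 12.2. Several of them also lie within 1 kb of a start of its neighbour CLCN2. POLR2K had 1, 6, 1 and 1 regions, with top values of 2.01, 37.8, 5.41 and 4.71, and the strongest of each list overlaps the neighbour FBXO43 as well. POLR2F had top values of 2.87, 9.17, 2.81 and 3.17. The PR regions of POLR2E and POLR2L under P4, with −log10 q of 35.3 and 26.6, lay 4693 and 4388 bp before the start, and those genes held no PR region within 1 kb of a start in that list. The PR regions of POLR2L touched another annotated gene or the 1 kb around a start of another protein-coding gene. Under vehicle POLR2E had PR regions 511 bp before and 613 bp after the start, with scores of 3.59 and 2.42.

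Among the 8 subunits found in Pol III alone, 4 had PR under vehicle and 7 under P4, against 50.7% and 76.2% of all protein-coding genes, and 6 had POLR3A in each list, against 48.9% and 54.4%. POLR3C, POLR3F and POLR3G or its paralogue POLR3GL form the subcomplex that helps open the promoter. POLR3C had top −log10 q of 3.79, 8.03, 4.38 and 6.21. Only the top PR region under P4 lay at the start, with its summit 17 bp after it. The top regions for PR under vehicle and POLR3A under vehicle and P4 lay beyond the far end of the gene. Their summits were 20910, 22044 and 22072 bp after the start. Regions of all 4 lists also overlapped each other at the start of POLR3C, which lies within 1 kb of a start of RNF115. POLR3F (chr20:18467390-18484646) had no region under vehicle in either list and overlapping regions under P4 at its start, chr20:18467142-18467591 for PR with a −log10 q of 12.8 and chr20:18467148-18467532 for POLR3A with 4.89. Its start is shared within 1 kb with DZANK1. POLR3G had PR under P4 alone (4.59) and POLR3A under vehicle alone (1.45), and POLR3GL had regions of all 4 lists, with top values of 4.10, 4.05, 5.99 and 4.81.

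POLR3D, which pairs with POLR3E, was the 1 gene with POLR3A and without PR in any list. Its POLR3A regions, with scores of 11.8 (vehicle) and 5.63 (P4), overlapped each other at the lower-coordinate end of the gene, and also overlapped the microRNA gene MIR320A. POLR3K, a small subunit involved in cleavage of the nascent RNA, had PR under P4 alone (11.4, 2782 bp before the start) and POLR3A under vehicle alone (3.53, 985 bp after the start). CRCP, which codes for the stalk subunit RPC9, had 1 PR region under vehicle and 11 under P4, and no POLR3A region under vehicle and 9 under P4. Of these, 6 PR and 6 POLR3A regions of the P4 lists overlapped each other. The top −log10 q of CRCP was 2.49 for PR under vehicle (percentile 12.0), 8.83 for PR under P4 (percentile 69.5) and 5.96 for POLR3A under P4 (percentile 86.0).

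GTF3A codes for TFIIIA, the zinc finger protein of 5S genes (chr13:27424619-27435823). By its strongest PR region it ranked 3 of the 34 genes in both lists, with −log10 q of 26.0 (vehicle) and 108 (P4) and fold enrichments of 9.43 and 22.4. Their summits lay 1682 and 1700 bp after the start, and the regions overlapped each other inside the gene. The top POLR3A regions there had scores of 4.19 under vehicle, at percentile 61.8, and 2.21 under P4, at percentile 17.1.

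The TFIIIB genes BRF1 and BRF2 held the strongest PR regions of all 34 genes in both lists. The other TFIIIB genes did not stand out for PR. The top PR regions of BDP1 were at percentiles 54.9 (vehicle) and 82.9 (P4). That of TBP was at 58.2 under P4, with none under vehicle. BRF1 (chr14:105209286-105315589), the TFIIIB subunit for tRNA and 5S genes, had 9 PR regions under vehicle and 26 under P4, with top −log10 q of 70.2 and 186 and fold enrichments of 14.4 and 25.5. The top summits lay 3084 and 3093 bp before the nearest start, and those regions lie in the span of the neighbouring gene PACS2 as well. At the most upstream start of BRF1 the PR regions had −log10 q of 10.1 and 13.9, and a POLR3A region was listed there under P4 alone (1.86). BRF2, the TFIIIB subunit for U6-type genes, had 5 PR regions under vehicle and 11 under P4, with top values of 35.1 and 114. Those top regions, chr8:37853062-37853416 and chr8:37853103-37853472, lie outside the annotated span of BRF2 (chr8:37843268-37849861). All 5 vehicle regions overlapped a P4 region. POLR3A at BRF2 had 3 and 5 regions, with top values of 5.83 and 7.63, and all 5 under P4 overlapped PR.

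BDP1 and TBP, the TFIIIB subunits that also serve beside BRF1 or BRF2, had POLR3A under vehicle alone and PR at the start under P4 alone. At TBP (chr6:170554369-170572859), the TATA-binding protein used by all 3 polymerases, the POLR3A region under vehicle was chr6:170554240-170554431, with its summit 17 bp after the start and a −log10 q of 3.53. The PR regions under P4 lay on both sides of it, with summits 458 bp before and 182 bp after the start and −log10 q of 5.93 and 4.59. At BDP1 (chr5:71455651-71578288) the POLR3A summit under vehicle lay 254 bp after the start (2.38) and the PR summit under P4 611 bp after it (4.35). A PR region deeper in BDP1, at 69193 and 69180 bp, was in both lists, with −log10 q of 6.53 and 19.6. POLR3A was thus listed at 4 of 4 TFIIIB genes under vehicle, against 48.9% of all protein-coding genes, and at 2 of 4 under P4, which is near the 54.4% of all genes. Both regions that were under vehicle alone had −log10 q below 5.

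TFIIIC, the factor that reads the A and B boxes, has 6 genes in the set. POLR3A was near the start of 5 of them under vehicle and 4 under P4, against 30.6% and 32.8% of genes with a start, and PR near the start of 2 and 5, against 22.7% and 48.4%. GTF3C2 (chr2:27325854-27356764) had all 4 lists at its start, with top −log10 q of 15.8, 29.6, 6.01 and 2.79, and PR summits 372 and 428 bp before the start. Every region of GTF3C2 touched another annotated gene or the 1 kb around a start of another protein-coding gene. GTF3C3 (chr2:196763035-196799683) had 1 region in each of 3 lists, all at the start and free of other annotated genes, with summits 52 bp (PR, P4), 39 bp (POLR3A, vehicle) and 32 bp (POLR3A, P4) before it and −log10 q of 6.65, 4.19 and 5.63. GTF3C4 had the same 3 lists at its start, with −log10 q of 4.10, 7.91 and 4.47, near a start of DDX31. GTF3C5 had POLR3A at its start in both lists (5.68 and 6.75, summits 73 and 63 bp before it), with PR there under P4 alone (2.10). GTF3C1, the largest TFIIIC subunit, had PR and POLR3A regions that overlapped each other before the start under vehicle (4.54 and 2.43), in the span of KATNIP, and no POLR3A region under P4. Under P4 it had 4 PR regions, with a top −log10 q of 5.93, and PR was again near its start. GTF3C6 was the 1 gene of the 34 with no region in any list, as 19.7% of protein-coding genes have none.

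SNAPc, which serves small nuclear RNA genes of both Pol II and Pol III, had POLR3A regions at 2 of 5 genes under vehicle and at 5 of 5 under P4, against 48.9% and 54.4% of all protein-coding genes. PR was at 3 and 5 of them, against 50.7% and 76.2%. SNAPC1 (chr14:61762420-61796428) had PR in both lists, with top −log10 q of 12.1 and 24.5 and summits 3901 and 3924 bp after the start, and POLR3A under P4 alone, 511 bp before the start (3.87). SNAPC3 (chr9:15422876-15466735) had P4 regions alone, PR 474 bp after the start (8.14) and POLR3A 466 bp before it (3.17), which did not overlap. SNAPC2 had POLR3A under P4 alone (3.31) and weak PR regions in both lists (1.91 and 2.30), none near its start. SNAPC4, the subunit with the Myb-type DNA-binding repeats, had PR under P4 alone (14.4) and POLR3A in both lists (2.32 and 3.47). SNAPC5 had all 4 lists at its start, with POLR3A at 5.29 under vehicle, 65 bp before the start, and at 2.08 under P4. Its PR regions and its POLR3A regions under P4 all touched another annotated gene or the 1 kb around a start of another protein-coding gene. None of the POLR3A regions at SNAPc genes under P4 reached a −log10 q of 5.

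MAF1, the repressor, had regions of all 4 lists, 2, 6, 3 and 3 of them. Its strongest PR regions scored 11.4 (vehicle) and 47.4 (P4), in the span of the neighbour SHARPIN, and its strongest POLR3A regions 7.98 and 11.7. The POLR3A region under vehicle, chr8:144103512-144105091, reached into the annotated span of MAF1 (chr8:144104461-144107611). That under P4, chr8:144103010-144104089, lay outside it. The PR and POLR3A regions of MAF1 overlapped each other under both treatments.

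**Figure D4:**
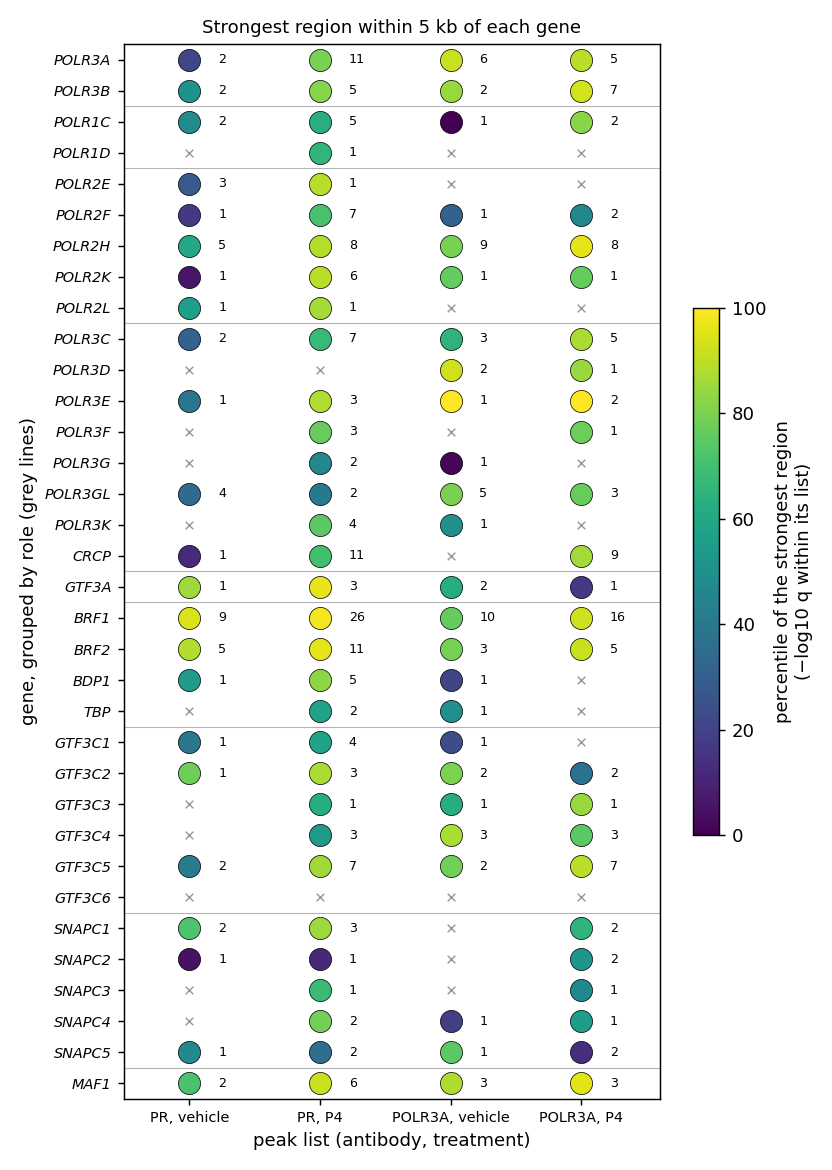
Strongest region in the window of each of the 34 genes (rows, grouped by role) in each of the 4 peak lists (columns). Colour gives the percentile of its −log10 q within that list, from 0 to 100, the number beside each circle is the count of regions, and a grey cross marks no region; POLR3E has the highest percentiles in both POLR3A lists and BRF1 in both PR lists.

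Across the set, 16 of 34 genes had a region in all 4 lists, against 32.5% of all protein-coding genes. For PR, 23 genes had regions under both treatments (background 49.8%), none under vehicle alone (0.943%) and 9 under P4 alone (26.4%). For POLR3A, 20 genes had regions under both treatments (40.8%), 5 under vehicle alone (8.07%) and 5 under P4 alone (13.6%). The 5 under vehicle alone were POLR3G, POLR3K, TBP, BDP1 and GTF3C1, and the 5 under P4 alone were POLR3F, CRCP, SNAPC1, SNAPC2 and SNAPC3. The 9 with PR under P4 alone were POLR1D, POLR3F, POLR3G, POLR3K, TBP, GTF3C3, GTF3C4, SNAPC3 and SNAPC4; the strongest of these were SNAPC4 at 14.4, POLR3F at 12.8 and POLR3K at 11.4. The split by treatment differed when the lists were made equally long. With both PR lists cut by −log10 q to 38933 regions, 23 genes had a PR region in the vehicle list, against 50.7% of all genes. In the P4 list 23 genes had one, against 52.4%. PR was then under both treatments in 18 genes, against 41.6%. It was under vehicle alone in 5, against 9.08%, and under P4 alone in 5, against 10.8%. With both POLR3A lists cut to 29161 regions, POLR3A was under both treatments in 17 genes, against 34.9%. It was under vehicle alone in 8, against 13.9%, and under P4 alone in 5, against 8.52%.

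More PR regions lay in the window under P4 than under vehicle in 28 genes and fewer in 2, POLR2E and POLR3GL, against 69.7% and 1.91% of all protein-coding genes. More POLR3A regions lay there under P4 in 14 genes and fewer in 10, against 36.4% and 14.7%. In all, the windows held 51 and 157 PR regions and 64 and 92 POLR3A regions. Of these, 35 of 51 PR vehicle regions overlapped a PR region under P4, against 75.7% in the whole list, and 35 of 157 PR regions under P4 overlapped one under vehicle, against 25.8%. For POLR3A the counts were 29 of 64 and 31 of 92, against 42% and 25.8%. Regions per 10 kb of window, pooled over the genes, were 0.332 and 1.02 for PR and 0.417 and 0.599 for POLR3A, against 0.183, 0.567, 0.158 and 0.254 over all protein-coding genes.

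A PR region overlapped a POLR3A region inside the window of 12 genes under vehicle, against 20% of protein-coding genes, and of 18 under P4, against 38.4%. In 10 genes this held under both treatments, namely POLR3A, POLR3B, POLR2H, POLR2K, POLR3C, POLR3E, BRF1, BRF2, GTF3C2 and MAF1. It held under vehicle alone in POLR3GL and GTF3C1, and under P4 alone in POLR3F, CRCP, GTF3A, GTF3C3, GTF3C4, GTF3C5, SNAPC1 and SNAPC5. This split by treatment was not counted over all protein-coding genes, and both P4 lists are longer, so it only names the genes. With an overlap of at least 50% of both regions, the counts were 7 under vehicle, against 11.1%, and 14 under P4, against 25.3%. Of the single POLR3A regions in these windows, 17 of 64 under vehicle overlapped PR (26.6%), against 32.3% in the whole list. Under P4 it was 43 of 92 (46.7%), against 50.5%, so for POLR3A both shares were somewhat below those of the lists. Of the PR regions, 17 of 51 under vehicle overlapped POLR3A (33.3%), against 24.2%, and 42 of 157 under P4 (26.8%), against 20.9%. For PR both shares were thus above those of the lists.

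Other genes of the transcription machinery are set beside these as counts. Over all protein-coding genes, the shares in the window are 48.9% and 54.4% for POLR3A and 50.7% and 76.2% for PR, and near a start 30.6% and 32.8% for POLR3A. Of 12 genes for Pol I subunits and factors, 9 had POLR3A under vehicle and 11 under P4 and 7 and 11 had PR, with 6 and 9 of the 11 that have a start holding POLR3A near that start. Of 11 Pol II initiation factor genes, 5 and 7 had POLR3A and 8 and 10 had PR, and of 7 genes for subunits of Pol II alone, 4 and 4 had POLR3A and 2 and 7 had PR. Of 13 further genes of the Pol III pathway, 10 and 12 had POLR3A and 8 and 12 had PR. No difference between these lists was tested.

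The windows also reach neighbouring genes. Another annotated gene, or the 1 kb around a start of another protein-coding gene, was touched by 21 of 51 PR regions under vehicle, 54 of 157 under P4, 32 of 64 POLR3A regions under vehicle and 35 of 92 under P4. The same count was not made for the windows of all protein-coding genes, so whether these shares are high or low is not known. When only regions whose nearest protein-coding gene was the gene itself were counted, a setting added after the data were seen, PR was at 19 and 27 of the 34 genes, against 45.7% and 71.8%, and POLR3A at 21 and 22, against 43.7% and 49.6%.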

How the data were processed

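ChIP-seq of T47D cells with antibodies against PR and POLR3A was read from 4 narrowPeak lists, 1 per antibody and treatment. Per the submitters' processing notes, cutadapt, Bowtie2 and MACS2 were used with the hg38 build; their versions and parameters, the control behind each list and the way replicates were combined are not given in the sources used here. The fold enrichment deposited by the authors is a linear ratio, and the deposited −log10 q is the authors' significance score of a region. The deposited summit offset was added to the region's start, and coordinates are printed counting from 1. Regions on chromosomes 1 to 22 and X were used.

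Genes came from the RefSeq GRCh38.p14 table, of which 58419 of 59098 genes on those chromosomes were kept and 679 alternate copies left out. Starts came from the RefSeq promoter table, which has them for 15812 of 19821 protein-coding genes and 27 of 34 of the set. Windows were 5 kb on each side of a gene and 1 kb on each side of a start, and any overlap of at least 1 bp counted. With 1 list per group no test was possible, and no interval or depth could be given, since the files hold no counts. Windows were tested on simulated data, and the counts of regions per gene equalled those of bedtools 2.31.1 in 4 of 4 lists. Python 3.11.15, numpy 2.4.6, pandas 2.3.3 and matplotlib 3.10.9 were used.

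The genes, lists, motifs and settings were chosen with earlier results of these data known. Every gene of the set was to be accounted for, with values for the genes present in all lists, the 3 strongest of each list and the strongest found under a single treatment. Alternatives were other windows, thresholds of 5 and 10 on −log10 q, lists of equal length, a reciprocal overlap of 50%, and fold in place of −log10 q. The nearest-gene count and the count at either gene end were added with the data in view.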

Additional observations from a re-analysis of the deposited data

How the results depend on the processing

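No paired analysis was possible because each group has 1 peak list and no column carries a replicate number; leaving out a replicate was not possible for the same reason. Of 112 alternative values, 79 stayed within the set limits (1.5 times for a count) and 33 moved beyond them. These limits set a value against its main value, not against all protein-coding genes. PR under vehicle was above all genes in the main count (67.6% against 50.7%). At a −log10 q of at least 10 it was below them (17.6% against 22.3%). The median percentile of the strongest PR region under P4 was 77.9 against 79.6 in the main setting. With 10 kb on each side it was 82.9 against 82.3. At a −log10 q of at least 5, a PR region was at 12 genes under vehicle, against 33.9% of all protein-coding genes. A POLR3A region was at 14 genes under vehicle, against 18.2%, and at 13 under P4, against 18.8%. Near the start PR was then at 5 and 11 genes, against 9.82% and 29.2%. POLR3A was there at 8 and 5, against 10.4% and 9.66%. PR was under both treatments in 11 genes (33.2% of all genes), under vehicle alone in 1 (0.681%) and under P4 alone in 17 (28.9%). POLR3A was under both in 9 (10.4%). PR overlapped POLR3A in 2 genes under vehicle (4.6%) and 8 under P4 (10.7%). When −log10 q had to reach 10, PR was in the window of 6 and 18 genes, against 22.3% and 45.6%. POLR3A was in the window of 3 and 3, against 3.99% and 3.52%. Near the start the counts were 2, 5, 1 and 2 in the order of the lists, against 4.51%, 14.8%, 1.95% and 1.78%. PR was then under both treatments in 6 genes (22.1%). POLR3A was under both in 1 (2.18%), under vehicle alone in 2 (1.81%) and under P4 alone in 2 (1.34%). PR overlapped POLR3A in 0 genes under vehicle (0.711%) and 2 under P4 (1.48%). A reciprocal overlap of at least 50% gave 7 genes with overlapping regions under vehicle, against 11.1% of all genes. With lists of equal length, PR was under vehicle alone in 5 genes (9.08%) and under P4 alone in 5 (10.8%). POLR3A was then under vehicle alone in 8 (13.9%). With 0 kb on each side of the gene PR was under vehicle alone in 2 genes (1.41%), and with 1 kb in 1 gene (1.23%). A higher threshold and a shorter list leave fewer regions to find. The depth of the libraries is unknown, and its part in the length of the lists was not tested.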
